A study of Mus musculus with 24 samples.

Results

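Keratins are the proteins of the intermediate filaments that give epithelial cells their mechanical strength. Every filament is built from pairs of an acidic type I and a basic type II keratin, and the pair in use marks the cell: Krt5 with Krt14 in the dividing basal layer of the epidermis, Krt1 with Krt10 in the layers above it, Krt6a, Krt6b, Krt16 and Krt17 in hair follicles and in wounded or inflamed epidermis. A growing hair follicle adds pairs of its own, with Krt25 to Krt28 and Krt71 to Krt73 in the inner root sheath that moulds the hair, and the cysteine-rich hair keratins in the shaft. These genes lie in one type I and one type II cluster.

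The keratin genes were taken as every row of the expression table that is protein coding and has a symbol of Krt followed by a digit, which gave 53 of 45777 genes. The 54 keratin-associated protein genes (Krtap) and 2 keratin symbols that are not protein coding were left out. In RefSeq annotation of GRCm38.p6, 27 of the genes lie on chromosome 11, between positions 99232761 and 100269951, and 26 on chromosome 15, between positions 101348315 and 102032026. They comprise 27 type I genes, 24 type II genes and 2 genes (Krt88 and Krt222) without an assigned type, and Krt18 is the type I gene that lies in the type II cluster. By known site of expression, 3 were put in the basal layer, 10 in the suprabasal and cornifying layers and 4 among the wound-associated keratins. In the follicle, 2 were put in the infundibulum and companion layer, 7 in the inner root sheath and 15 in the hair shaft. The rest were 5 simple epithelial keratins, 3 keratins of internal stratified epithelia and cornea, and 4 put elsewhere. The hair shaft class includes Krt36 and Krt84, although both are known from tongue papillae.

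The study sequenced polyA RNA of skin and of dorsal root ganglia (DRG), which hold the cell bodies of the sensory neurons that supply the skin, in 6 control and 6 model libraries of each tissue. Model animals were injected in the dermis with LL37, a human cathelicidin peptide that raises a rosacea-like inflammation, at 320 µM in 40 µL on 2 days with doses given 2 times a day. All animals were female mice of the BALB/c strain, 6 weeks old, and the series text describes oral gabapentin at 100 mg/kg from day 3 and DRG collection on day 4. No sample label names gabapentin, what the control animals received, when skin was taken or which libraries share an animal, so the part of gabapentin in a difference cannot be told apart, and p-values measure the spread between these libraries only.

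Control skin libraries held between 45238735 and 64547448 counts each and model skin libraries between 46549562 and 63531350. The ganglion libraries held between 52273676 and 63544026 (control) and between 47801198 and 68396846 (model). Levels of one gene across libraries are given as CPM, its counts scaled to the library total with edgeR's TMM factors. Levels of different genes are compared in TPM, which also allows for transcript length. Differences are log2 fold changes, model over control, from edgeR's quasi-likelihood test with Benjamini-Hochberg adjustment over all genes tested, called at an adjusted p under 0.05. Skin libraries carried the epidermal genes other than keratins (8 of 8 tested, 4507 to 6261 CPM summed in control skin) and DRG libraries the sensory neuron genes (6426 to 8275 CPM summed in control DRG). Control skin 2 stood apart from the other control libraries in the hair follicle genes, as described below, and the follicle results are given with and without it. It was singled out by its values in these same genes. Calls and p-values without it are therefore a description and add no independent support.

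Promoters of hair follicle keratins, with those of Krt10 and Krt5 of the epidermis for comparison, are shown first, because inner root sheath genes of the 2 clusters, on separate chromosomes, had their low and high values in the same libraries. RefSeq promoter windows on GRCm38.p6 were matched for 36 of the 53 genes (37 entries). Each line gives the 100 bases upstream of the annotated start, 5′ to 3′ on the strand of the gene (the minus strand in all of them), with the TATA motif TATAAA in capitals where it lies within 50 bases of the start. The windows of Krt36 and Krt10 lie inside the span of their genes, whose annotation reaches further upstream. In 33 of the 37 entries, bases just downstream of the start occur near the 5′ end of a GENCODE transcript of the gene.
Krt25, inner root sheath, chr11:99322952-99323051: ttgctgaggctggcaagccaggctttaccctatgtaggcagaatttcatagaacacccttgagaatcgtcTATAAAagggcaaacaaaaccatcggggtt
Krt27, inner root sheath, chr11:99351119-99351218: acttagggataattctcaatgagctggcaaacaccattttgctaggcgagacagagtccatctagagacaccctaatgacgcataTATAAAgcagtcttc
Krt71, inner root sheath, chr15:101743098-101743197: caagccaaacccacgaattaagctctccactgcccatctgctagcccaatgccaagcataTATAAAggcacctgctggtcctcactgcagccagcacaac
Krt33b, hair shaft, chr11:100029869-100029968: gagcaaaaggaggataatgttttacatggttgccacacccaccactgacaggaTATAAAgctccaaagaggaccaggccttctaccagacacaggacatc
Krt34, hair shaft, chr11:100041555-100041654: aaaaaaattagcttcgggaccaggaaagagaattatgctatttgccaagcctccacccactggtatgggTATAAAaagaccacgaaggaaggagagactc
Krt36, hair shaft, chr11:100105627-100105726: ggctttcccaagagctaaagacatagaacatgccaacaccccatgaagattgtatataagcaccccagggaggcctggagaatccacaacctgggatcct
Krt84, hair shaft, chr15:101532821-101532920: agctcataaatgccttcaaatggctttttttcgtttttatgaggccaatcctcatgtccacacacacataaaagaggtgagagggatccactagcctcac
Krt10, suprabasal layers, chr11:99389365-99389464: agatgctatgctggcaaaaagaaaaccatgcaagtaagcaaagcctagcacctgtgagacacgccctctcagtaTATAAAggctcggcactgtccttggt
Krt5, basal layer, chr15:101712906-101713005: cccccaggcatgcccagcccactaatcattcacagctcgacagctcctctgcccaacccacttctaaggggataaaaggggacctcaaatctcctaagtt

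TATAAA on the sense strand within 50 bases of the start was found in 15 of the 37 keratin entries (40.5%), against 863 of 32851 promoters of all genes (2.63%). It was found in 6 of the 7 inner root sheath entries, 5 of 9 hair shaft entries, 2 of 8 suprabasal entries and 0 of 2 basal entries. The 4 hair shaft entries without it were Krt36, Krt39, Krt82 and Krt84, and the inner root sheath entry without it was Krt72. The LEF/TCF core CTTTGA or CTTTGT, searched on both strands over the 250 bases before the start, was found in 12 of 37 keratin entries (32.4%) and in 27.6% of all promoters. The AP-2 motif GCCNNNGGC, searched in the same way, was found in 5 of 37 keratin entries (13.5%) and in 13.7% of all promoters. These matches describe letters in a window, and binding was not measured.

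In skin, 51 of the 53 genes passed the filter on low counts (Krt76 and Krt88 did not). Keratin genes took up 3.69 to 6.15% of all counts in the control libraries and 2.01 to 4.07% in the model libraries. The share was 5.59, 3.69, 6.15, 5.64, 6.02 and 5.65% in control libraries 1 to 6 and 2.01, 3.50, 4.07, 2.50, 3.87 and 3.95% in model libraries 1 to 6. Control library 2 lay within the range of the model libraries, and the other 5 controls lay above every model library. In bulk tissue, fewer keratin-bearing cells and less keratin RNA per cell cannot be told apart. By mean TPM over the 12 skin libraries, the order was Krt71, Krt5, Krt14, Krt17, Krt27, Krt25 and Krt10, with 8695 TPM in control and 3094 TPM in model skin for Krt71, 5346 TPM in control and 4579 TPM in model skin for Krt5 and 4978 TPM in control and 4462 TPM in model skin for Krt14. Krt71 and the inner root sheath genes owed their place to the libraries in which they were high, while Krt5 and Krt14 were high throughout.

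Of the 51 keratin genes tested, 1 fell in model skin (Krt23) and 0 rose. Among all 19526 genes tested, 5.82% were called lower and 14.1% higher. At an unadjusted p under 0.05 there were 13 of the 51, beside 35.4% of all genes tested. DESeq2 called 6 keratin genes lower (Krt17, Krt23, Krt25, Krt27, Krt71 and Krt75) and 3 higher (Krt20, Krt36 and Krt84), beside 12.3% and 16.2% of all genes. The keratin median was a log2 fold change of -0.57, beside -0.02 over all genes tested, and 36 of the 51 values were negative. No keratin gene had groups that did not overlap (0 of 51, against 8.69% of all genes tested).

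The count of calls turned on single libraries and on the samples fitted. With a filter of at least 1 CPM, edgeR called Krt84 higher beside Krt23 lower (15.0% of all genes higher, 7.27% lower). With all 24 libraries in 1 fit, it called 5 keratin genes lower and 2 higher, against 16.3% and 17% of all genes. Krt84 was also called higher without model 2, as were Krt20, Krt36 and Krt42 (14.2% of all genes higher, 5.47% lower), and without model 3 (13.8% higher, 3.61% lower). Without model 5, Krt20 was called higher and Krt80 lower beside Krt23 (16.7% higher, 5.09% lower). No keratin gene was called without control 5 (10.9% of all genes higher, 2.15% lower), model 4 (12% and 1.57%) or model 6 (13.3% and 2.5%).

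**Figure D1:**
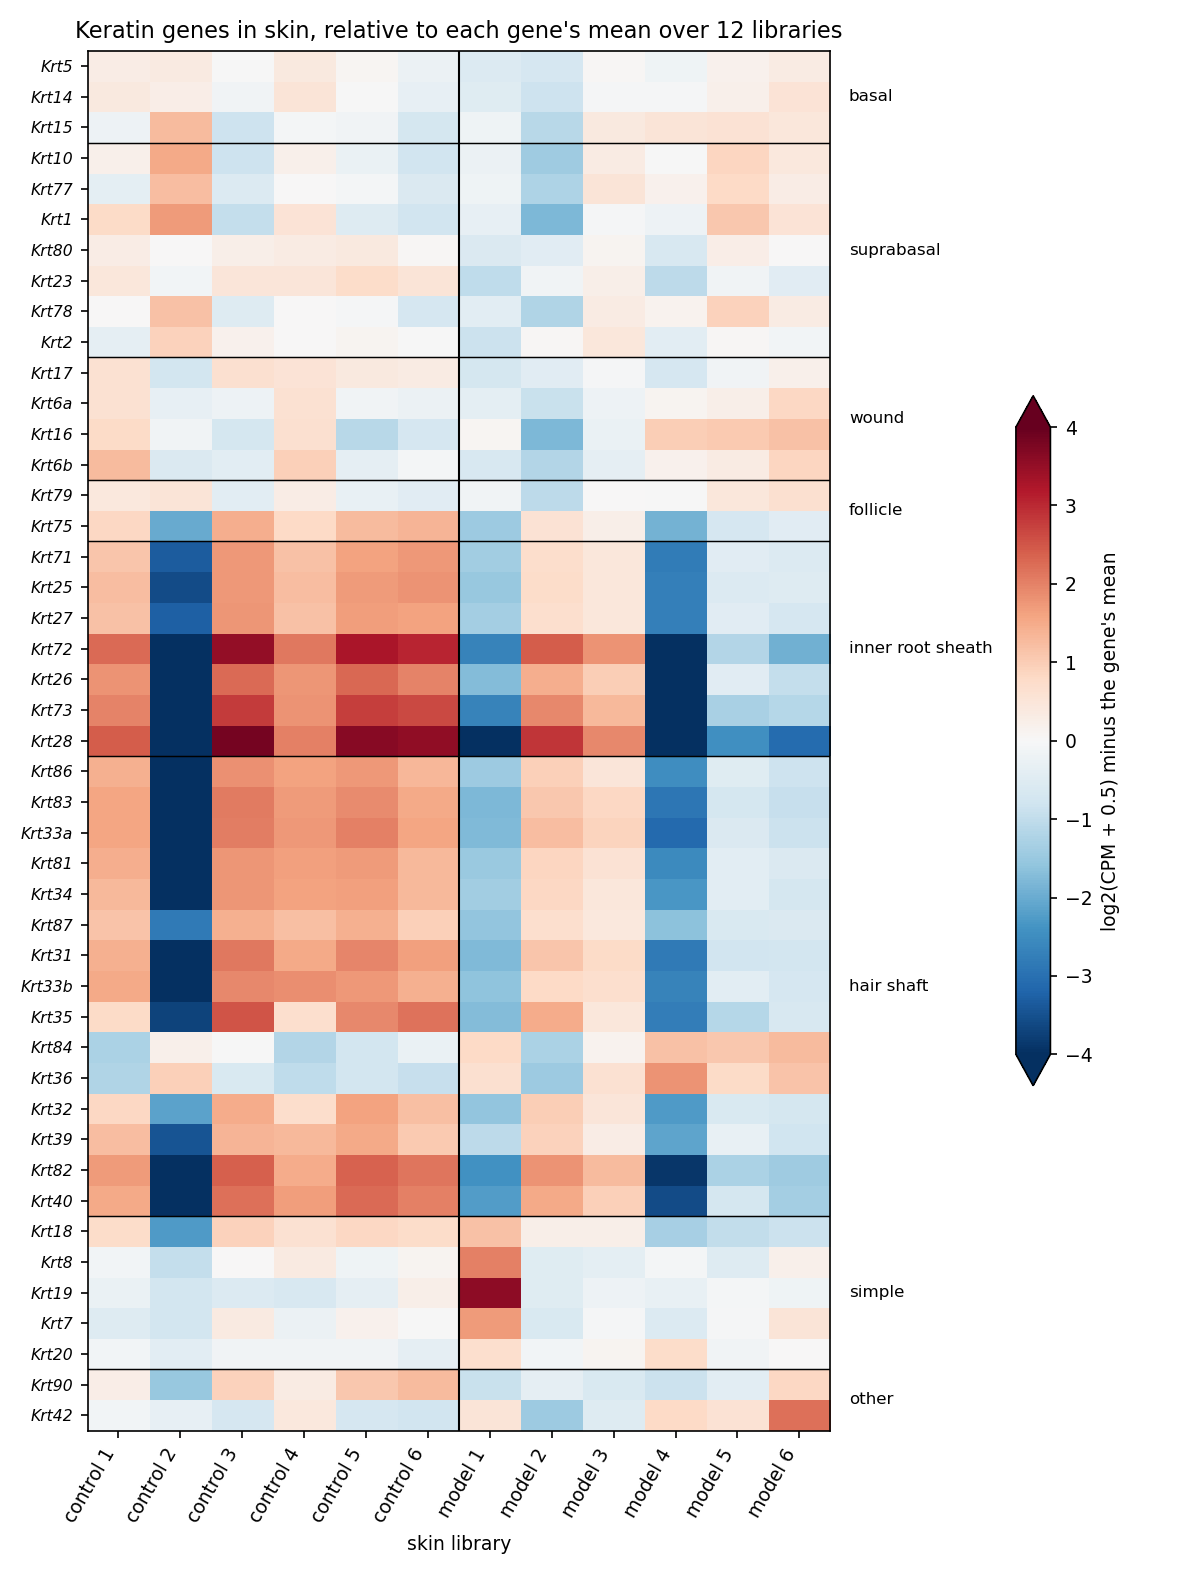
Levels of the 45 keratin genes that average 1 CPM or more in skin, as log2(CPM + 0.5) minus the mean of the gene over the 12 libraries (colour scale limited at 4 in both directions), for control libraries 1 to 6 and model libraries 1 to 6, grouped by class. Most inner root sheath and hair shaft genes are lowest in control 2 and model 4 of their groups, and Krt36 and Krt84 run the other way.

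The inner root sheath genes had the lowest median of the classes, -1.70, with 7 of 7 values negative and 0 of 7 called (5.82% of all genes lower). Without control 2 the median was -1.96 and 3 of 7 were called lower, beside 12.8% of all genes. Krt71, the type II keratin of all 3 layers of the inner root sheath, stood at 8384, 385, 12836, 8729, 11756 and 12721 CPM in control libraries 1 to 6. In model libraries 1 to 6 it stood at 1481, 6251, 5248, 556, 2824 and 2626 CPM. The 5 control libraries other than control 2 were all above the 6 model libraries, and control 2 was below all of them. Its log2 fold change was -1.53 (SE 0.69, edgeR adjusted p = 0.134) with all libraries and -1.78 (SE 0.49, adjusted p = 0.0187) without control 2.

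Krt25, a type I partner of Krt71, stood at 4422, 157, 6201, 4451, 6107 and 6589 CPM in the controls and 652, 3149.9, 2577, 280.1, 1298 and 1305 CPM in the models. Krt27, another type I partner, ranged over 3546 to 5313 CPM in 5 controls, 162 CPM in control 2 and 233 to 2474 CPM in the models. The pattern of Krt71 recurred in both, with control 2 under every model library and the other controls over every model library. Their log2 fold changes were -1.59 (SE 0.71, edgeR adjusted p = 0.132) and -1.56 (SE 0.68, edgeR adjusted p = 0.123), and without control 2 they were -1.85 (SE 0.50, adjusted p = 0.0172) and -1.82 (SE 0.48, adjusted p = 0.0158).

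Krt72, Krt73, Krt26 and Krt28, also of the inner root sheath, spread further than Krt71 and Krt25. Krt72 stood at 1377, 1.85, 3280.1, 1252, 2741 and 2375 CPM in the controls and 44.4, 1540.0, 991, 5.03, 127 and 76.1 CPM in the models. Krt28 stood at 669.7, 2.93, 1764, 511, 1572 and 1469 CPM in the controls and 5.5, 902, 479, 3.03, 22.2 and 14.4 CPM in the models. In both genes the models split, with models 2 and 3 inside or near the range of the 5 high controls and models 1, 4, 5 and 6 far below it. Neither was called with or without control 2 (edgeR adjusted p = 0.302 and 0.135 for Krt72, 0.320 and 0.187 for Krt28). Krt26 overlaps the lncRNA gene Gm32502, as does Krt25, and the reads of such pairs cannot be told apart because whether the counting used strand is not stated.

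The hair shaft genes had a median of -1.56, with 13 of 15 values negative and 0 of 15 called (5.82% of all genes lower, 14.1% higher). Without control 2 the median was -1.82, and the genes called are given below. Krt33b, a type I hair keratin of the cortex, stood at 381, 5.46, 512, 487, 443 and 356 CPM in the controls and 43.4, 233, 214, 20.4, 99.6 and 84.6 CPM in the models. Krt86, a type II hair keratin of the cortex, ranged over 899 to 1274 CPM in 5 controls, 19.9 CPM in control 2 and 62.9 to 683 CPM in the models. Krt83 and Krt33a, the other most abundant hair keratins, were at 895 ± 459 and 864 ± 444 CPM (SD, n = 6) in control and 287 ± 262 and 289 ± 271 CPM in model skin. Control 2 was the lowest control in 13 of the 15 hair shaft genes and in 7 of the 7 inner root sheath genes. In the models, model 4 was lowest and model 2 highest in the same counts, 13 of 15 and 7 of 7. Log2 fold changes were -1.65 (SE 0.79) for Krt33b, -1.56 (SE 0.75) for Krt86, -1.64 (SE 0.83) for Krt83 and -1.58 (SE 0.87) for Krt33a, and none passed (edgeR adjusted p = 0.154, 0.156, 0.178 and 0.212). Reads of Krt33a and Krt33b, and of Krt81, Krt83 and Krt86, which are close paralogs, may have been divided between the copies by the counting.

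Krt36 and Krt84 were the exceptions in the hair shaft class, and they were singled out after their values were seen. They were put in that class although both are known from the tongue papillae. Krt84, a type II keratin known from the filiform papillae of the tongue, stood at 72.4, 201, 173, 75.8, 105 and 144 CPM in the controls and 304, 71.9, 189.9, 389, 369 and 419.6 CPM in the models. Krt36, a type I keratin known from the tongue papillae and nail, stood at 26.6, 120.4, 40.5, 29.8, 36.9 and 31.9 CPM in the controls and 96.3, 22.0, 94.7, 213, 106 and 136 CPM in the models. In both genes control 2 was the highest control and model 2 the lowest model, the reverse of the other hair keratins and the same as in Krt10 and Krt1. Krt84 was above every control in 4 of 6 models and Krt36 in 2 of 6. Their log2 fold changes were 1.18 (SE 0.39, edgeR adjusted p = 0.0532) and 1.22 (SE 0.49, edgeR adjusted p = 0.0976), short of the threshold, and without control 2 they were 1.35 (SE 0.41, adjusted p = 0.0286) and 1.75 (SE 0.42, adjusted p = 0.0102).

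**Figure D2:**
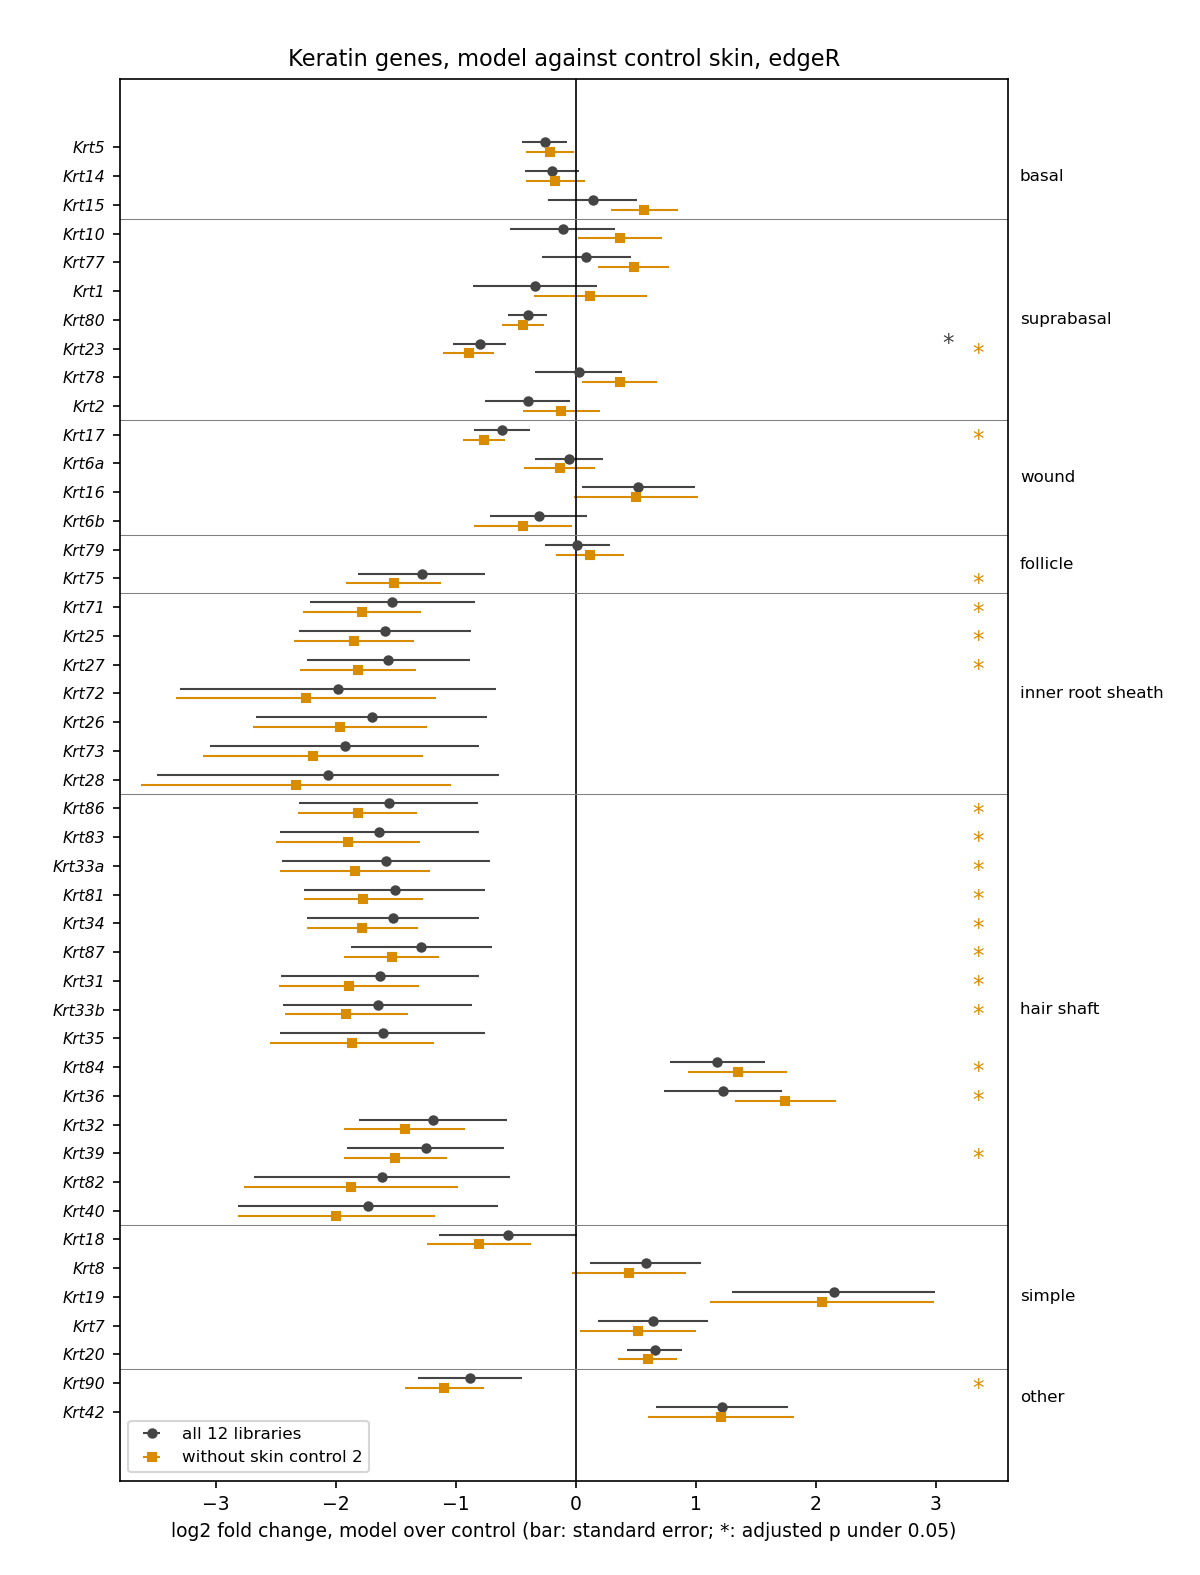
Log2 fold changes, model over control skin, of the 45 keratin genes that average 1 CPM or more (points; bars are the standard error), from all 12 skin libraries (grey) and without control 2 (orange), with an asterisk at an adjusted p under 0.05. Krt23 carries a grey asterisk, and 18 genes carry an orange one.

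Without control 2, the same test called 16 keratin genes lower and 2 higher, beside 12.8% of all genes lower and 18.7% higher. Control 2 was singled out by its values in these same genes. Leaving it out narrows their control spread by construction, so these calls describe the data only. The 16 lower genes were 9 hair shaft genes (Krt31, Krt33a, Krt33b, Krt34, Krt39, Krt81, Krt83, Krt86 and Krt87), the inner root sheath genes Krt25, Krt27 and Krt71, Krt75 of the companion layer, and Krt17, Krt23 and Krt90. The 2 higher genes were Krt36 and Krt84. Chosen after seeing the data, the same count of non-overlapping groups without control 2 gave 17 of the 51 genes lower in every model library than in every remaining control, beside 7.15% of all genes tested, and 0 higher in every model library, beside 11.7%. Log2 fold changes of the 9 hair shaft genes called lower ran from -1.91 in Krt33b to -1.51 in Krt39.

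Hair follicle genes that are not keratins were high and low in the same libraries as these keratins. The 9 genes listed for this check, among them trichohyalin (Tchh), the filament-bundling protein of the inner root sheath, summed to 17569, 578, 27218, 16752, 26621 and 28332 CPM in controls 1 to 6. In models 1 to 6 they summed to 2411, 14906, 10819, 820.4, 4644 and 3693 CPM. Control 2 was again lowest, and models 1 and 4 were the lowest models, as for the inner root sheath keratins. The median log2 fold change of the 9 was -1.64, and 1 of 9 was called lower, beside 5.82% of all genes. It was Liph, a lipase needed for hair growth, at -0.73 (SE 0.18, edgeR adjusted p = 0.0138). Without control 2 the median of the 9 was -1.91, and 6 of 9 were called lower by edgeR, beside 12.8% of all genes.

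Of 13 transcription factors known from keratinocytes and hair, 4 fell in model skin by edgeR's test, 0 rose, and the median was -0.73. Over all genes tested, 5.82% fell and 14.1% rose. Gata3, a factor of the inner root sheath lineage, was at -0.76 (SE 0.18, adjusted p = 0.0116). Tfap2a and Tfap2c, the AP-2 factors of keratinocytes, were at -0.73 (SE 0.18, adjusted p = 0.0155) and -0.53 (SE 0.15, adjusted p = 0.0273). Vdr, the vitamin D receptor needed for the hair cycle, was at -0.54 (SE 0.18, adjusted p = 0.0493). Hoxc13, which activates hair keratin genes, and Foxn1, whose loss makes the hair of nude mice brittle, did not pass, at -1.10 (SE 0.42, adjusted p = 0.0812) and -1.27 (SE 0.45, adjusted p = 0.0675). Trp63, the master factor of stratified epithelia, was at -0.31 (SE 0.16, adjusted p = 0.194). Without control 2, 8 of the 13 fell (median -0.77), beside 12.8% of all genes. Among them were Hoxc13 at -1.31 (adjusted p = 0.0102) and Foxn1 at -1.48 (adjusted p = 0.0111) by edgeR.

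Other cell types also differed between the libraries. The melanocyte genes summed to 30.6, 54.5, 524, 32.1, 224 and 903 CPM in controls 1 to 6 and to 25.2 to 100.2 CPM in the models, and controls 3, 5 and 6, with the high melanocyte sums, also had the 3 highest levels of Krt71, Krt25, Krt72 and Krt28. Proliferation genes summed to 255, 258, 491, 242, 344 and 733 CPM in the controls, highest in control 6 and control 3, and to 193 to 461 CPM in the models (0 of 10 called). Skeletal muscle genes summed to 10011 CPM in control 2 and 10117 CPM in model 4, the 2 libraries with the lowest hair keratins, and to 1021 to 6438 CPM in the other 10 skin libraries. In model skin, 9 of 9 monocyte and macrophage genes rose (203 to 538 CPM summed in control, 717 to 2043 in model), as did 7 of 8 endothelial genes and 7 of 7 adipocyte genes, while 5 of 7 melanocyte genes fell (median -2.88). Over all genes tested, 14.1% were called higher and 5.82% lower. The part of these cell types in the keratin values was not tested.

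**Figure D3:**
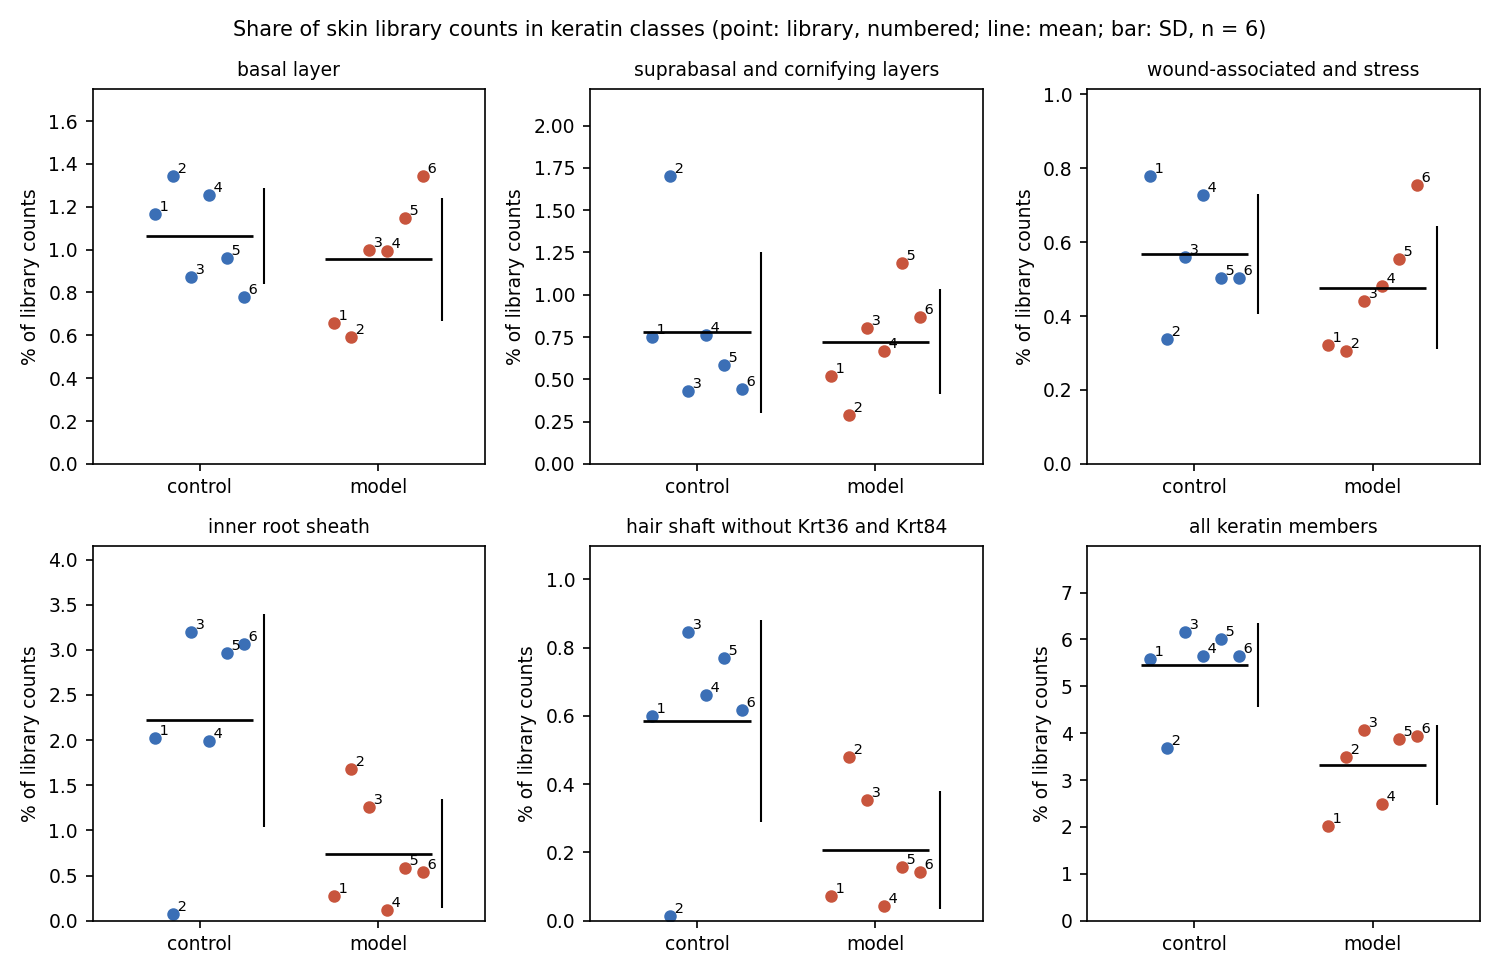
Share of each skin library's counts, in percent, that fell in the named keratin classes; points are libraries with their number, lines are means and bars the SD (n = 6). Inner root sheath genes range over 0.0725 to 3.19% in control and 0.116 to 1.68% in model skin, while the basal and wound-associated classes overlap between the groups.

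Of the 13 keratins put in the basal and suprabasal classes, 12 were tested and 1, Krt23, was called lower, beside the 5.82% of all genes. Krt23 differed from Krt10 and Krt1 in the order of its libraries, as described below. Krt5 and Krt14, the pair of the dividing basal layer, were at 5685 ± 940.2 and 3981 ± 897 CPM (SD, n = 6) in control and 4744 ± 1259 and 3470.3 ± 1141 CPM in model skin. Their log2 fold changes were -0.26 (SE 0.19, edgeR adjusted p = 0.343) and -0.20 (SE 0.23, edgeR adjusted p = 0.567). Krt15, a keratin of resting basal cells and of the stem cells of the hair bulge, stood at 908, 2523, 592, 978, 949 and 635 CPM in the controls and 920.0, 486, 1361, 1498, 1541 and 1439 CPM in the models, with control 2 far above the other controls. It was at 0.14 (SE 0.37, edgeR adjusted p = 0.824) with all libraries and 0.57 (SE 0.28, adjusted p = 0.139) without control 2. The basal class took up 0.778 to 1.34% of counts in control and 0.593 to 1.35% in model skin, so the basal share did not separate the groups.

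Krt10 and Krt1, the pair of the suprabasal layers, spread widely within both groups. Krt10 stood at 2975, 7454, 1461, 3018, 2148 and 1529 CPM in the controls and 2219, 972, 3243, 2599, 4724 and 3454 CPM in the models. Krt1 ranged over 649 to 4084 CPM in the controls and 359 to 2639 CPM in the models. Control 2 was highest for both genes, and model 2 lowest, the reverse of the order seen for the inner root sheath. Fold changes were -0.11 (SE 0.44) and -0.34 (SE 0.52) and not past the threshold (edgeR adjusted p = 0.880 and 0.672), and without control 2 both had the opposite sign, 0.36 and 0.12, again short of it (edgeR adjusted p = 0.457 and 0.871). Krt77, a type II keratin of the upper epidermis, averaged 2048 ± 1232 CPM in control skin against 2176 ± 865 CPM in model skin, with a log2 fold change of 0.09 (SE 0.37, edgeR adjusted p = 0.889). Krt2, a keratin of the cornifying layer that is strong in mouse ear, paw and tail skin, was near the bottom of the measured range, at 0.715 to 2.42 CPM in control and 0.357 to 1.64 CPM in model skin.

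Krt23, a type I keratin on chromosome 11 (99477973 to 99493120), was the keratin gene that fell. It stood at 253, 169, 258, 254, 306 and 259.8 CPM in control libraries 1 to 6. In model libraries 1 to 6 it stood at 90.2, 166, 216, 87.6, 166 and 134 CPM. In 5 of 6 models it was under every control, and model 3, at 216 CPM, was above control 2 alone. Its order of libraries was not that of Krt10 and Krt1, which were highest in control 2 and lowest in model 2. Krt23 was lowest in control 2 and model 4 of their groups, as the inner root sheath genes were, but highest in model 3. The log2 fold change was -0.80 (SE 0.22, edgeR adjusted p = 0.0244), a 1.74-fold lower level. The call was lost when control 5, model 4 or model 6 was left out (log2 fold changes -0.74, -0.67 and -0.76, edgeR adjusted p = 0.0582, 0.0546 and 0.0565). Krt80, a type II keratin found in many epithelia, was under every control in 4 of 6 models, at -0.40 (SE 0.16, edgeR adjusted p = 0.101), and did not pass.

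The wound-associated keratins are those that epidermis switches on after injury and in psoriasis-like inflammation. Of their 4 members, 0 passed the threshold, beside 5.82% of all genes lower and 14.1% higher. Their median was -0.18, with values of both signs, from -0.62 in Krt17 to 0.52 in Krt16. Krt16 stood at 782, 418, 279, 713, 211 and 287 CPM in the controls and 483, 131, 380.3, 899, 939 and 1021 CPM in the models. Krt6a, which pairs with Krt16, stood at 2297, 1179, 1289.8, 2288, 1362 and 1259.9 CPM in the controls and 1133, 806, 1303, 1623, 1744 and 2676 CPM in the models. Models 4, 5 and 6 had more Krt16 than any control, and model 2 had less, while the groups of Krt6a overlapped. Log2 fold changes were 0.52 (SE 0.47, edgeR adjusted p = 0.461) for Krt16, -0.06 (SE 0.28, edgeR adjusted p = 0.901) for Krt6a and -0.31 (SE 0.40, edgeR adjusted p = 0.620) for Krt6b. Krt6a and Krt6b are close paralogs, and Krt6a overlaps the lncRNA gene Gm49428, so their counts are uncertain to that extent.

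Krt17, which is also a keratin of the outer root sheath and the growing hair follicle, shared with the inner root sheath genes a low control 2 but not their order elsewhere. It stood at 3697, 1459, 3802, 3574, 3222 and 3061 CPM in the controls and 1490.2, 1789, 2385, 1543, 2232 and 2809 CPM in the models. Control 2 was the lowest library of all, and the other 5 controls were above every model. Controls 5 and 6 were the next lowest controls for Krt17, while Krt71 was higher in them than in controls 1 and 4. Among the models Krt17 was highest in model 6 and lowest in model 1. Most hair shaft and all inner root sheath genes were highest in model 2 and lowest in model 4. The log2 fold change was -0.62 (SE 0.23, edgeR adjusted p = 0.0794) with all libraries and -0.77 (SE 0.17, adjusted p = 0.00741) without control 2. Krt75, a type II keratin of the companion layer between the root sheaths, was at 928 to 1444 CPM in 5 controls, 130.1 CPM in control 2 and 142 to 799.6 CPM in the models. Krt79, which marks the infundibulum at the follicle's opening, was at 852 to 1674 CPM in control and 568 to 1837 CPM in model skin, with a log2 fold change of 0.01 (SE 0.27, edgeR adjusted p = 0.983).

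Ratios of TPM within a library compare keratins without reference to the rest of the RNA. Some pairs kept close ratios and others did not. Krt71 over Krt25 was 1.73, 2.24, 1.89, 1.79, 1.76 and 1.76 in the controls and 2.08, 1.81, 1.86, 1.81, 1.99 and 1.84 in the models, while Krt71 itself ranged over 385 to 12836 CPM in the controls. Krt5 over Krt14 was 0.973 to 1.15 in control and 0.917 to 1.19 in model skin. Krt6a over Krt16 ran over 1.96 to 4.48 in control and 1.25 to 4.27 in model skin. The ratio of Krt72 to Krt71 spread further within both groups. It was 0.177, 0.00516, 0.276, 0.155, 0.252 and 0.202 in the controls and 0.0324, 0.266, 0.204, 0.00976, 0.0487 and 0.0313 in the models, lowest in control 2 and model 4.

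The ratios of Krt16 and Krt84 to the basal keratins were higher in most models, a description without a test. Krt16 over Krt14 was 0.176, 0.102, 0.0900, 0.146, 0.0633 and 0.106 in the controls and 0.201, 0.0689, 0.116, 0.275, 0.242 and 0.206 in the models, above every control in 4 of 6 models. Krt84 over Krt5 was 0.0100, 0.0264, 0.0296, 0.00970, 0.0168 and 0.0286 in the controls and 0.0753, 0.0194, 0.0311, 0.0739, 0.0559 and 0.0563 in the models, above every control in 5 of 6 models. Summed over all genes of a type, type II over type I was 0.928, 0.890, 0.933, 0.928, 0.924 and 0.935 in the controls and 0.906, 0.951, 0.923, 0.862, 0.921 and 0.908 in the models. That ratio lay in a narrow band although the share of inner root sheath genes differed from 0.0725 to 3.19% of counts.

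**Figure D4:**
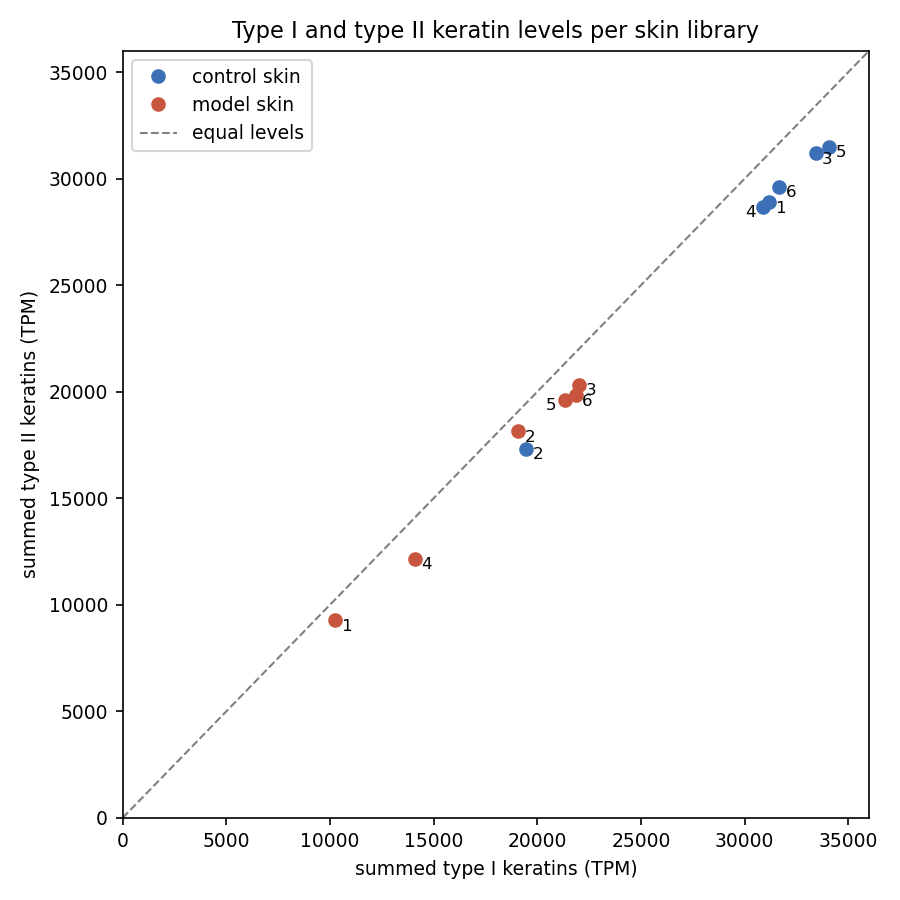
Summed TPM of type I keratins (horizontal axis) against type II keratins (vertical axis) in each skin library, control in blue and model in red with library numbers, and a dashed line of equal levels. All 12 libraries lie just below the line, with type II over type I between 0.862 in model 4 and 0.951 in model 2.

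The simple epithelial keratins, which belong to single-layered epithelia such as glands and ducts, were low in skin, and in 3 of the 5 (Krt19, Krt8 and Krt7) model 1 stood far above the other models. Krt19, a keratin of ducts and of the hair bulge, stood at 25.0, 1.03, 1.37, 1.26, 1.52 and 1.41 CPM in models 1 to 6 and at 0.786 to 2.01 CPM in the controls. Krt8, a keratin of glandular epithelia, stood at 25.3, 4.12, 4.44, 5.56, 4.01 and 6.97 CPM in the models and 2.83 to 7.66 CPM in the controls. Model 1 was above all other skin libraries in both genes, and also in Krt7, at 7.29 CPM where models 2 to 6 had 1.07 to 2.96 CPM. Log2 fold changes were 2.15 (SE 0.85, edgeR adjusted p = 0.0926) for Krt19 and 0.58 (SE 0.46, edgeR adjusted p = 0.395) for Krt8. Without model 1 the value for Krt8 was -0.16. Krt18, the usual partner of Krt8, was at 13.8 CPM in model 1 at 9.31 to 11.6 CPM in 5 controls and at 0.829 CPM in control 2, with 2.01 to 7.0 CPM in the other models. The TPM ratio of Krt8 to Krt18 was 0.375 to 0.638 in 5 controls, 2.67 in control 2 and 0.455 to 2.14 in the models.

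Model 1 also held the most adipocyte RNA, 11314 CPM summed against 1435 to 5113 CPM in the other models. A list of luminal mammary epithelium genes, chosen after these values were seen, did not single it out by its sum (307 CPM, against 296 to 468 CPM in the other models). Of its 10 genes 3 were at 0 in every skin library, and the 5 tested had a median log2 fold change of -0.36. By edgeR, 2 of the 5 were called higher and 0 lower, beside 14.1% and 5.82% of all genes. Whether adipocytes or mammary epithelium contributed to the simple keratins was not tested.

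The remaining keratins of skin were low or varied by library. Krt42 and Krt90 were highest in model 6, at 17.7 and 28.3 CPM, against 0.948 to 6.28 and 8.29 to 11.9 CPM in the other models. In the controls Krt42 was at 1.79 to 4.74 CPM, and Krt90 was at 18.8 to 38.0 CPM in 5 libraries and 5.10 CPM in control 2. Krt90 in model 6 thus lay among the controls, and in the other models it lay below those 5. Krt20, a simple epithelial keratin, was above every control in 4 of 6 models, at 0.66 (SE 0.23, edgeR adjusted p = 0.0654), from levels of 0.808 to 1.12 CPM in control and 1.10 to 2.40 CPM in model skin. The keratins of internal epithelia and cornea (Krt4, Krt12 and Krt13) were at most 1.404 CPM in any skin library. Of these 3, 0 passed, beside 14.1% of all genes higher and 5.82% lower. Krt9, the keratin of palm and sole epidermis, did not exceed 0.468 CPM.

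The proteins that anchor keratin filaments at desmosomes and hemidesmosomes are given here beside the keratins. Of 13 such genes tested, 3 fell, 0 rose and the median was -0.39, beside 5.82% of all genes lower and 14.1% higher. Evpl and Ppl, plakins of the cornified envelope, were at -0.91 (SE 0.26, adjusted p = 0.0261) and -0.63 (SE 0.17, adjusted p = 0.0230) by edgeR, and Pkp3, a desmosomal plaque protein, was at -0.68 (SE 0.19, adjusted p = 0.0287). Dsp, the plakin that ties keratins to desmosomes, was at -0.42 (SE 0.15, adjusted p = 0.0712) and did not pass. Among 8 epidermal genes other than keratins, 2 fell and 0 rose, beside the same shares of all genes. These were the adhesion genes Dsc1, at -0.87 (SE 0.21, adjusted p = 0.0141), and Cdh1, at -0.55 (SE 0.14, adjusted p = 0.0157).

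In DRG, keratin genes took up 0.00480 to 0.00534% of counts in control libraries and 0.00513 to 0.00781% in model libraries. Of the 53 genes, 15 passed the filter on low counts, 5 reached a mean of 1 CPM and 10 had no count in any DRG library, which allows at most 3 counts over a group. None of the 15 passed edgeR's test (0 of 15, beside 0.0974% of all 19509 genes tested called higher and 0.0% lower), none had groups that did not overlap (0.528% of all genes), and 3 of 15 were at an unadjusted p under 0.05, beside 9.34% of all genes. DESeq2 called 0 of the keratin genes, 0.627% of all genes higher and 0.0965% lower. Krt222, a keratin-like gene at the edge of the type I cluster, was the most abundant keratin by TPM and stood at 39.9, 40.0, 44.1, 39.6, 35.6 and 39.8 CPM in control DRG 1 to 6 and 37.6, 33.8, 37.8, 34.5, 37.9 and 42.8 CPM in model DRG 1 to 6. Its log2 fold change was -0.09 (SE 0.06, edgeR adjusted p = 0.669), and in skin it was at 0.492 to 1.38 CPM in control libraries. It overlaps the lncRNA gene Gm32385.

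The basal keratins that lead in skin were close to 0 in the ganglia. Krt5 was at most 0.0589 CPM and Krt14 at most 0.265 CPM in any DRG library. Krt10 stood at 1.63 to 2.53 CPM in control and 1.41 to 2.42 CPM in model DRG, and Krt27 at 0.722 to 1.61 and 0.766 to 1.47 CPM, with overlapping groups in both genes.

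Krt80, Krt19 and Krt17 were highest in the same 3 model ganglia. Krt80 stood at 5.45, 2.77, 1.39, 0.755, 3.99 and 4.96 CPM in control and 5.03, 16.3, 11.6, 29.2, 4.62 and 3.59 CPM in model DRG. Krt19 stood at 1.14, 0.703, 0.568, 0.601, 0.852 and 0.941 CPM in control and 0.923, 2.58, 2.04, 3.07, 0.806 and 1.37 CPM in model DRG. Krt17 was at 0.0835 to 0.513 CPM in control DRG and at 0.781, 0.979 and 2.45 CPM in model DRG 2, 3 and 4. In all 3 genes model DRG 4 was highest, models 2 and 3 were next, and models 1 and 5 lay within the controls. Log2 fold changes were 1.86 (SE 0.61, edgeR adjusted p = 0.464), 1.16 (SE 0.32, edgeR adjusted p = 0.372) and 1.63 (SE 0.58, edgeR adjusted p = 0.468) in turn, and none passed. Krt80 overlaps the lncRNA gene Gm35853.

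**Figure D5:**
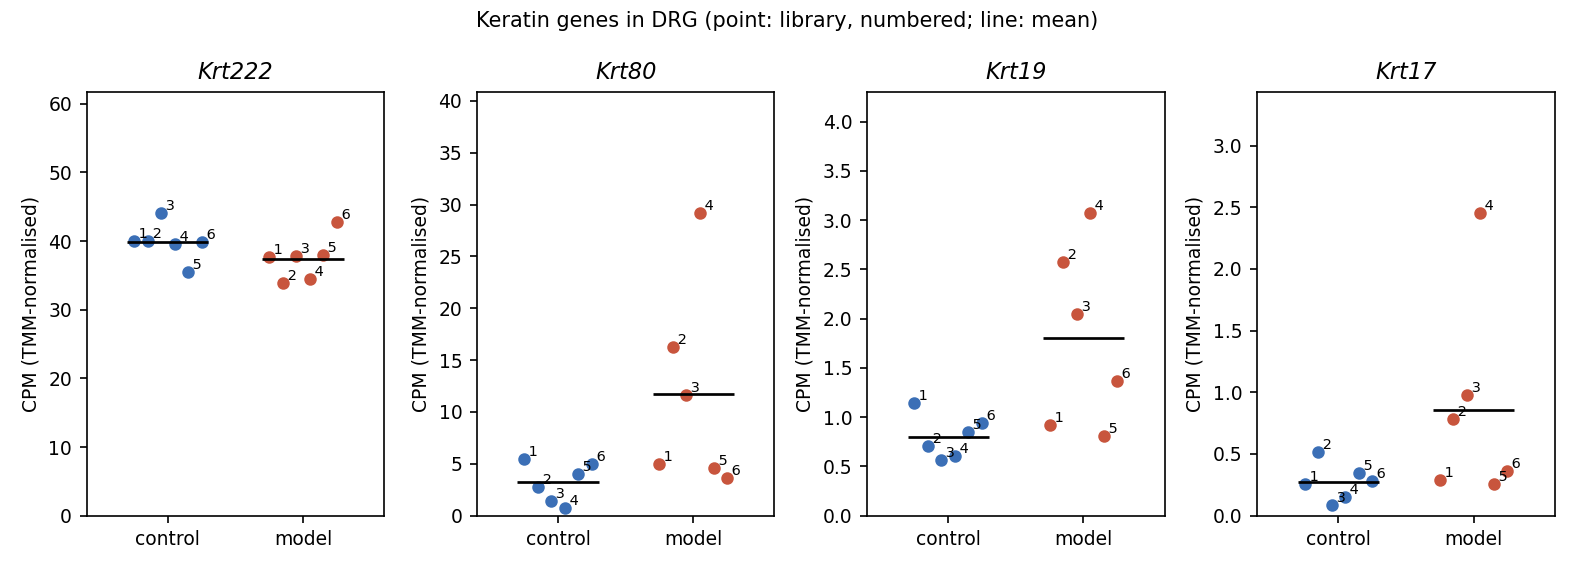
Levels (CPM) of Krt222, Krt80, Krt19 and Krt17 in control and model DRG; points are libraries with their number and lines are means. Krt222 overlaps between the groups, while model DRG 2, 3 and 4 lie above the other 9 libraries in Krt80, Krt19 and Krt17.

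Genes of a mesothelial list, chosen after these values were seen, had their highest sums in the same ganglia, largely through Msln. Of the 4 tested, 0 were called, beside 0.0974% of all genes higher and 0.0% lower in DRG. The genes of the list summed to 21.8, 47.5, 33.9, 76.4, 17.2 and 16.2 CPM in model DRG 1 to 6 and 9.43 to 17.7 CPM in control DRG. Without Msln the sums were 12.3, 10.9 and 12.7 CPM in model DRG 2, 3 and 4 and 6.69 to 10.2 CPM in control DRG. Msln, mesothelin, was at 35.3, 23.0 and 63.8 CPM in model DRG 2, 3 and 4 and at 2.03 to 8.65 CPM in control DRG, while Wt1 and Lrrn4 of the same list had log2 fold changes of 0.11 (SE 0.22, adjusted p = 0.905) and 0.00 (SE 0.10, adjusted p = 0.997) by edgeR. The part of this tissue in the keratin values was not tested.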

How the data were processed

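PolyA RNA of 12 skin and 12 DRG libraries was sequenced. Per the submitters' processing notes, the tools were HISAT2 2.1.0, StringTie 2.1.3b, Trimmomatic and bcl2fastq 2.20.0, and the build was GRCm38 (mm10). The sources used here do not give the gene counting step or its strand setting. The authors deposited whole-number counts of reads for each gene, without normalization. TPM values deposited by the authors were used for levels across genes and for ratios, and the FPKM values deposited by the authors were not used.

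Groups came from the sample titles. Skin and DRG had separate fits with edgeR 4.0.16 in R 4.3.3, on the counts, with filterByExpr, TMM factors and robust quasi-likelihood F tests, two-sided, with Benjamini-Hochberg adjustment over all genes tested, and the procedure was tested on simulated data. Other settings tried were upper-quartile or RLE factors, DESeq2 1.42.0, 2 other filters, all 24 libraries in 1 fit, the replicate number as a block and each library left out in turn. Among 60 pairs of libraries within groups, 0 were identical (lowest chi-square per gene 9.13). Floors and counting limits cover counting error only.

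The members, classes and lists were chosen with earlier results of these data known. Named with values were called members, the 3 most abundant of each class, a set of well-known keratins and the 5 most abundant in DRG. Krt20, Krt26, Krt28, Krt31, Krt33b, Krt34, Krt36, Krt39, Krt72, Krt73, Krt80, Krt81, Krt84 and Krt87 in skin, Krt17 in DRG and the promoters shown were added after their values were seen. Keratins without a row in the table were not analysed here.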

Additional observations from a re-analysis of the deposited data

Results flagged for a closer look

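A library was listed when its gap to the nearest other library of its group exceeded 0.625 of the group's whole range in CPM. This looked at 98 sets of 6 libraries (a gene in a group with a mean of at least 1 CPM), and it listed 25. The limit lists about 1 in 20 sets when sets are independent and values normally distributed. Keratin genes vary together and that distribution was not checked, so the 25 cannot be set against that rate. Skin control 2 accounts for 20 of the 25 listings, and the values below are in CPM.

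By this rule, skin control 2 was far below the other controls in 14 keratin genes: Krt17 (1459), Krt18 (0.829), Krt33b (5.46), Krt34 (17), Krt27 (162), Krt86 (19.9), Krt71 (385), Krt81 (15.2), Krt25 (157), Krt33a (10.3), Krt39 (3.42), Krt26 (7.80), Krt87 (32.3) and Krt83 (14.5). It was far above them in 6: Krt10 (7454), Krt15 (2523), Krt36 (120.4), Krt2 (2.42), Krt78 (211) and Krt77 (4499.7). The low genes listed belong to the hair shaft, inner root sheath and outer root sheath, with Krt18. The high genes are mostly those of the basal and suprabasal epidermis with Krt36. The rule leaves out genes whose other controls spread widely, such as Krt72 (1.85 in control 2) and Krt28 (2.93), although control 2 was very low in them.

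Skin model 1 was far above the other models in Krt19 (25.0), Krt8 (25.3) and Krt7 (7.29), which are simple epithelial keratins. Skin model 6 was far above the other models in Krt42 (17.7) and Krt90 (28.3).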

How the results depend on the processing

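The 1 keratin call in skin became 2 with the 1 CPM filter, 7 with all 24 libraries in 1 fit and 9 in DESeq2, and 0 to 18 when single libraries were left out (0 without control 5, model 4 or model 6, 5 without model 2, 3 without model 5, 2 without model 3, 18 without control 2). It was 1 with RLE factors, upper-quartile factors, no filter and each of the other libraries left out, where 2.23% to 8.14% of all genes were called lower. Over all genes, the 3892 calls in skin became 6489 with all 24 libraries, and 2564 to 6278 when single libraries were left out (2586 without control 3, 2564 without control 5, 6278 without control 2). The 19 calls in DRG became 12 with the 1 CPM filter, 33 with 24 libraries, 135 in DESeq2 and 11 to 36 when single libraries were left out (11 without control 1 or control 4, 12 without model 3, 36 without model 6), and the keratin genes in DRG gave 0 calls throughout (0.0308% to 0.627% of all genes higher). The causes were not tested.

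With the replicate number as a block, 2804 genes passed in skin and 6 in DRG, and the keratin counts were 1 and 0. The numbers only name the libraries: correlations of same-numbered deviations ran from -0.51 to 0.26 in skin and -0.38 to -0.05 in DRG, and 0 controls correlated best with their own number. Krt10 in skin turned from -0.11 to 0.0876 and Krt79 from 0.01 to -0.0108 under the block.

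Small log2 fold changes turned sign elsewhere, all short of the threshold. Krt79 was -0.0044 with RLE factors, -0.0163 with upper-quartile factors, -0.0224 with 24 libraries and -0.0045 in DESeq2. With single libraries left out, values ran from -0.12 to 0.18 for Krt79, -0.27 to 0.36 for Krt10, -0.61 to 0.12 for Krt1, -0.0395 to 0.48 for Krt77, -0.27 to 0.0862 for Krt6a, -0.44 to 1.20 for Krt13 and -0.16 to 0.76 for Krt8 in skin, and from -0.15 to 0.0161 for Krt10 and -0.19 to 0.0824 for Krt27 in DRG. Depth limits the low keratins of DRG, where 36 of 53 averaged under 0.1 CPM.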
